A study of Homo sapiens with 18 samples.

Results

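The quantity described is the interaction of IL4I1 with AHR knockdown: for each gene, the change with IL4I1 in cells with low AHR minus the change with IL4I1 in cells with normal AHR. It used all 18 arrays of the 18 in the series, in 6 groups of 3. All were U-87MG cells, a human glioblastoma line, cultured for 120 h in the same medium. Here shCtrl cells carried a non-targeting hairpin RNA, and shAHR1 and shAHR2 cells carried hairpins against different stretches of the AHR transcript. Each of these backgrounds was paired with either the empty pLX301 vector or pLX301 carrying human IL4I1, both delivered by lentivirus and selected with puromycin. The interaction was the mean of the IL4I1 change in shAHR1 cells and in shAHR2 cells, minus the IL4I1 change in shCtrl cells, on log2 group means. A rise with IL4I1 that was lost at low AHR has a negative interaction, and a fall that was lost has a positive one. The labels call the replicates biological and do not say how many separate infections they came from, so the line made for a group and its treatment cannot be told apart, and p-values measure the spread between these arrays.

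IL4I1, an enzyme released by cells, converts tryptophan and other aromatic amino acids to keto acids, with hydrogen peroxide and ammonia as by-products. AHR, the aryl hydrocarbon receptor, is a transcription factor that waits in the cytoplasm with chaperones until it binds a small ligand, which can be a tryptophan derivative. It then enters the nucleus, pairs with ARNT and binds DNA elements with the core GCGTG near genes of xenobiotic metabolism such as CYP1B1 and near its own feedback inhibitors, TIPARP and AHRR. The comparison addresses which IL4I1 responses differ when AHR is low.

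The array values are log2 probe-set summaries. The 18 arrays had medians of 6.46 to 6.53 and correlated with each other at 0.865 to 0.954. The spread of relative expression (the interquartile range of each array's deviation from the probe-set medians) was 0.319 to 0.472, apart from 0.529 for replicate 2 of shCtrl cells with the empty vector. Of the markers, VIM ran from 12 to 12.43 and CD44 from 10.65 to 11.41, while the glial gene GFAP (5.63 to 6.88), the leukocyte gene PTPRC (4.95 to 6.78) and the epithelial gene EPCAM (5.36 to 6.64) lay around the array median of 6.51. GFAP does not stand for all glial markers: group means were 6.88 to 8.65 for SLC1A3, 6.07 to 8.36 for SOX9 and 4.92 to 7.51 for PDGFRA. AHR itself was 10.05, 10.13 and 10.23 in shCtrl cells with the empty vector and 9.90, 9.84 and 10.33 with IL4I1, against 7.45 to 8.16 in the 12 arrays with an AHR hairpin. The knockdown lowered AHR by 2.25 ± 0.14 (SE) without IL4I1 and by 2.19 ± 0.14 with it, and its interaction was 0.06 ± 0.20 (95% interval -0.36 to 0.48). The IL4I1 transcript was 5.27 to 6.43 without the transgene and 12.67 to 13.01 with it, with an interaction of -0.27 ± 0.27 (95% interval -0.85 to 0.31). Some AHR transcript was left in every knockdown array. Over all genes, knockdown changed 169 without IL4I1 (1.09%: 0.773% higher, 0.316% lower) and 333 with it (2.14%: 1.44% higher, 0.708% lower).

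Across 15529 genes, 3 had an interaction past an adjusted p of 0.05 (limma, Benjamini-Hochberg), and all 3 were negative. These were TIPARP and BPIFC, whose rise with IL4I1 was lost at low AHR, and CCL2, which fell with IL4I1 at low AHR and did not pass in shCtrl cells. They are 0.0193% of the genes tested (lost rises 0.0129%, the gained fall 0.00644%), no gene had a positive interaction past the threshold (0%), and no fall with IL4I1 was lost. At an unadjusted p under 0.05 there were 836 genes (5.38%), 381 higher and 455 lower, and 1413 without replicate 1 of shCtrl cells with the empty vector. The interaction had a median SE of 0.27 and the 5th and the 95th percentiles over genes were -0.59 and 0.52, and a call took several times that SE, so for a typical gene a difference of differences of 1 on the log2 scale, or somewhat above it, was not detectable. Single arrays decided several of these calls: without IL4I1 shCtrl replicate 2 or 3 no gene passed, with 842 and 966 genes at an unadjusted p under 0.05. Without the array of widest spread, replicate 2 of shCtrl cells with the empty vector, 3 genes passed, namely CCL2, KRT19 and BANK1. RMA, the authors' normalisation, equalises the distributions of the arrays, so a shift of all transcripts at once could not be seen.

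**Figure D1:**
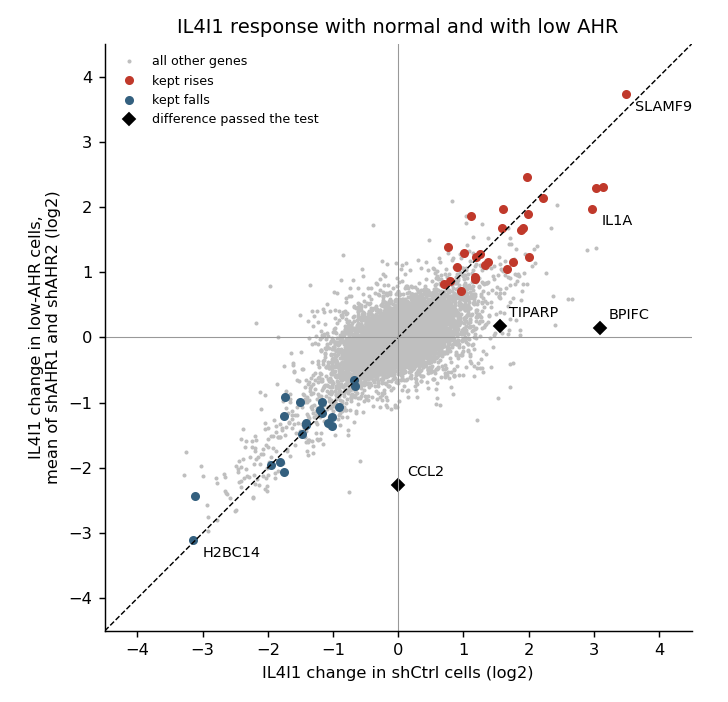
Each point is 1 of the 15529 genes, with IL4I1 itself left out. The x axis is the log2 change with IL4I1 in shCtrl cells, and the y axis the mean log2 change in shAHR1 and shAHR2 cells. The distance from the diagonal is the interaction, and TIPARP, BPIFC and CCL2, which passed the test, lie below it.

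TIPARP encodes a mono-ADP-ribosyltransferase that AHR induces and that in turn represses AHR. Its log2 values were 7.72, 7.68 and 7.58 in shCtrl cells with the empty vector and 9.42, 9.19 and 9.03 with IL4I1, so the groups were well apart (they did not overlap in shCtrl cells for 20.3% of all genes). In shAHR1 cells they were 7.30, 6.98 and 7.23 with the empty vector and 7.21, 6.75 and 7.37 with IL4I1, which overlap. In shAHR2 cells they were 7.49, 7.60 and 7.16 against 7.95, 7.71 and 7.86 with IL4I1, where the IL4I1 arrays were all slightly higher. IL4I1 raised TIPARP by 1.55 ± 0.18 in shCtrl cells (adjusted p = 1.8e-04), and the change was 0.18 ± 0.12 over both hairpins (adjusted p = 0.51). The interaction was -1.37 ± 0.22 (95% interval -1.83 to -0.92, adjusted p = 0.0485). Taken with each hairpin it was -1.61 ± 0.25 with shAHR1 (adjusted p = 0.077) and -1.13 ± 0.25 with shAHR2 (adjusted p = 0.64), values that share the 6 shCtrl arrays. Without IL4I1 the knockdown changed TIPARP by -0.37 ± 0.15 (adjusted p = 0.34), and with IL4I1 it lowered it by 1.74 ± 0.15 (adjusted p = 2.3e-05). The size of the TIPARP interaction moved little when single arrays were left out (-1.47 to -1.27), but its call did not hold: it passed without shAHR2 replicate 3 (adjusted p = 0.0323), IL4I1 shAHR1 replicate 2 (0.0461) or IL4I1 shAHR1 replicate 3 (0.0397), and leaving out any other of the 18 arrays gave an adjusted p of 0.0519 to 0.271.

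The window from 250 bases before to 50 after the TIPARP start is shown with that of AHRR, a feedback repressor of AHR whose response to IL4I1, given further on, was kept. AHRR was chosen for this contrast after its values were seen. The sequences are from RefSeq (GRCh38.p14), on the gene strand, and capitals mark the AHR response element core GCGTG or, on the other strand, its reverse complement CACGC. TIPARP is at chr3:156674340-156674639 (plus strand), with the core on the other strand at positions -208 and -142 from the start, and AHRR is at chr5:321464-321763 (plus strand), with the core on the gene strand at -30.
TIPARP: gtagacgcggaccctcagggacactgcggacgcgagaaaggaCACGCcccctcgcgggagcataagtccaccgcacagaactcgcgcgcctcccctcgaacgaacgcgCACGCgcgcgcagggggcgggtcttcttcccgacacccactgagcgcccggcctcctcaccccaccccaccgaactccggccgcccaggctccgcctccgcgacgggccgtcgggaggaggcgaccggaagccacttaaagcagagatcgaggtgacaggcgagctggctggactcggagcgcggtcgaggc
AHRR: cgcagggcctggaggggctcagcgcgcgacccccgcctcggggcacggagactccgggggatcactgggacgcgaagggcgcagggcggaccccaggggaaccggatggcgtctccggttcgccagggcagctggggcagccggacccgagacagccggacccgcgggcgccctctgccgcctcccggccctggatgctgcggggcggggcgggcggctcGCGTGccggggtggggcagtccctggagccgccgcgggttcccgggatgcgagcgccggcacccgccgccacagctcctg
The core was in 5850 of 12265 measured genes with a promoter in the table (47.7%), and in 5 of 7 AHR core targets, so a match describes these letters and no more.

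BPIFC, a member of the family of lipid-binding and bactericidal proteins, was read near the floor of the array in 5 of the 6 groups. It had values of 3.93, 3.21 and 3.42 in shCtrl cells with the empty vector and 7.06, 6.39 and 6.4 with IL4I1. In shAHR1 cells the values were 2.79, 3.09 and 2.10 without and 3.88, 3.02 and 3.09 with IL4I1, and in shAHR2 cells 3.80, 3.03 and 2.66 without and 2.55, 2.53 and 3.24 with it. The 3 arrays of IL4I1 shCtrl cells therefore stood above the other 15, whose group means were all within the lowest 1% of group means on these arrays (4.51 or below), where a log2 difference may not follow the amount of transcript. How many of all genes have 3 arrays set apart in this way was not computed. The interaction was -2.95 ± 0.42 (95% interval -3.84 to -2.07, adjusted p = 0.0214). IL4I1 raised BPIFC by 3.10 ± 0.34 in shCtrl cells (adjusted p = 1.4e-04), against 0.14 ± 0.24 over both hairpins (adjusted p = 0.84). With shAHR2 the interaction alone passed (-3.48 ± 0.48, adjusted p = 0.0165), and with shAHR1 it was -2.42 ± 0.48 (adjusted p = 0.19). The call was lost when any of 8 arrays was left out: all 3 IL4I1 shCtrl arrays (adjusted p = 0.136, 0.0591 and 0.0512), shCtrl replicates 2 and 3 (0.0724 and 0.0804), shAHR1 replicate 1 (0.0629), and IL4I1 shAHR2 replicates 1 and 2 (0.0541 and 0.0596).

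CCL2, the chemokine that draws monocytes, changed with IL4I1 in the cells with low AHR. Its values in shCtrl cells were 6.88, 5.96 and 6.42 with the empty vector and 6.01, 6.55 and 6.69 with IL4I1, and the groups overlap. In shAHR1 cells they were 7.99, 8.36 and 8.09 with the empty vector and 6.44, 5.91 and 5.99 with IL4I1. In shAHR2 cells they were 7.09, 7.26 and 6.83 against 4.56, 4.78 and 4.39, so that in both low-AHR backgrounds every IL4I1 array lay below every vector array. How many of all genes show this pattern was not computed. The change with IL4I1 was 0.00 ± 0.24 in shCtrl cells against -2.03 ± 0.24 with shAHR1 (adjusted p = 7.1e-04) and -2.49 ± 0.24 with shAHR2 (adjusted p = 5.8e-05). The interaction was -2.26 ± 0.29 (95% interval -2.87 to -1.64, adjusted p = 0.0129), and by hairpin -2.03 ± 0.34 (adjusted p = 0.091) and -2.49 ± 0.34 (adjusted p = 0.0165). CCL2 started from different levels, because knockdown without IL4I1 raised it by 1.18 ± 0.21 over both hairpins (adjusted p = 0.0095). With IL4I1 the knockdown lowered it by 1.07 ± 0.21 over both hairpins (adjusted p = 0.011). The hairpins differed in this. Group means in shCtrl, shAHR1 and shAHR2 cells were 6.42, 8.15 and 7.06 without IL4I1, and 6.42, 6.12 and 4.57 with it. The shAHR2 vector arrays overlap the shCtrl ones, as do the shAHR1 arrays with IL4I1. The call was lost without IL4I1 shCtrl replicate 2 (adjusted p = 0.0591) or 3 (0.0512), and the size ran from -2.49 to -2.03 over the 18 omissions.

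**Figure D2:**
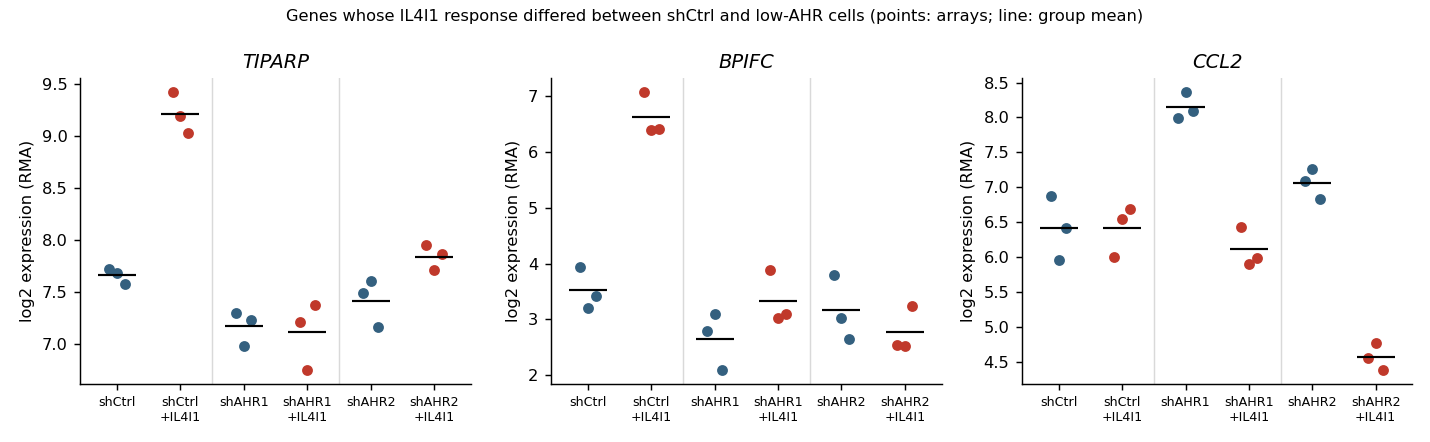
Log2 values of TIPARP, BPIFC and CCL2 on each of the 18 arrays, by group, with the group mean as a bar. TIPARP and BPIFC are high in the 3 IL4I1 shCtrl arrays, and CCL2 is low in the IL4I1 arrays of both AHR hairpins relative to their own vector arrays.

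Just outside the threshold, given as a description, stood 4 genes. MCTP1, a calcium-binding membrane protein, fell with IL4I1 in shCtrl cells by 1.62 ± 0.17, against -0.40 ± 0.12 at low AHR, an interaction of 1.22 ± 0.20 (adjusted p = 0.075). Its arrays read 8.44, 8.85 and 8.51 in shCtrl cells without and 6.99, 6.77 and 7.18 with IL4I1, against 8.72, 9.07 and 8.95 without and 8.48, 8.40 and 8.86 with it in shAHR1 cells and 8.24, 8.19 and 8.27 against 7.67, 7.70 and 7.93 in shAHR2 cells. The netrin receptor gene DCC had an interaction of -1.61 ± 0.29 (adjusted p = 0.114), the adhesion gene CADM1 -1.61 ± 0.30 (adjusted p = 0.148) and the synaptonemal complex gene SYCP1 -2.48 ± 0.47 (adjusted p = 0.156). DCC, CADM1 and SYCP1 differed in where they started. Knockdown without IL4I1 raised DCC by 1.94 ± 0.2 (adjusted p = 3.6e-04) and CADM1 by 1.06 ± 0.21 (adjusted p = 0.022). It raised SYCP1 by 1.57 ± 0.33 (adjusted p = 0.032) and changed MCTP1 by -0.03 ± 0.14 (adjusted p = 0.97). The DCC vector arrays read 4.35 to 4.82 in shCtrl cells and 5.99 to 7.10 at low AHR. The IL4I1 arrays of DCC read 3.62 to 4.56 in all 3 backgrounds. Its 3 IL4I1 group means were in the lowest 1% of group means described for BPIFC, as was the shCtrl vector mean of SYCP1 (3.64), so the differences of both genes may be bounded by the array floor.

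The AHR core targets did not move as TIPARP did. Of 9 measured, 3 rose with IL4I1 in shCtrl cells (TIPARP, CYP1B1 and AHRR) beside 2.02% of all genes, and 4 rose at low AHR (AHRR, CYP1B1, NQO1 and NFE2L2) beside 2.40%, with 2 on both counts. TIPARP was the 1 member with a called interaction, and the list's median interaction was 0.01 against -0.02 over all genes. AHRR read 7.82, 7.47 and 7.32 in shCtrl cells with the vector and 8.44, 8.35 and 7.95 with IL4I1. In shAHR1 cells it read 6.04, 6.37 and 6.37, then 7.0, 7.05 and 7.24 with IL4I1, and in shAHR2 cells 7.03, 7.09 and 6.81, then 7.70, 7.77 and 7.92. Each IL4I1 array lay above each vector array of its own background, and the low-AHR vector arrays lay below the shCtrl ones. Groups with and without IL4I1 did not overlap in any background for 4.05% of all genes. AHRR rose by 0.71 ± 0.17 in shCtrl cells (adjusted p = 0.029) and by 0.83 ± 0.12 at low AHR (adjusted p = 0.0011), with an interaction of 0.12 ± 0.21 (95% interval -0.33 to 0.56).

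CYP1B1, an oestrogen- and xenobiotic-metabolising cytochrome, also rose in both settings. It read 10.04, 9.35 and 9.60 against 10.85, 10.97 and 10.72 with IL4I1 in shCtrl cells, and 8.80, 8.20 and 7.81 against 9.63, 9.45 and 9.34 in shAHR1 cells. In shAHR2 cells it read 9.51, 8.41 and 8.59 against 9.68, 9.96 and 9.83. The groups with and without IL4I1 did not overlap in any background, as was so for 4.05% of all genes (20.3% in shCtrl cells alone). Knockdown alone lowered it by 1.11 (adjusted p = 0.036). Its IL4I1 changes were 1.18 ± 0.28 (adjusted p = 0.023) and 1.09 ± 0.19 (adjusted p = 0.0035), with an interaction of -0.09 ± 0.34 (95% interval -0.80 to 0.63). NQO1, a quinone reductase shared with NRF2, changed by 0.72 ± 0.20 in shCtrl cells (adjusted p = 0.054) and rose by 0.97 ± 0.14 at low AHR (adjusted p = 0.0011), with an interaction of 0.25 ± 0.25 (95% interval -0.28 to 0.78). NFE2L2, the gene of NRF2 itself, had an interaction of 0.01 ± 0.18, the amino acid transporter gene SLC7A5 -0.57 ± 0.35 (95% interval -1.31 to 0.17, and -1.02 or -0.22 without shCtrl vector replicate 1 or 3), the efflux pump gene ABCG2 -0.36 ± 0.25, ALDH3A1 0.24 ± 0.31 and CYP1A2 0.15 ± 0.43. The interval lay within 1 log2 unit of 0 for 6 of the 9, beside 70.4% of all genes. The wider AHR-responsive list, of 29 genes, had no called interaction and a median of -0.09. In it 7 rose in shCtrl cells (2.02% of all genes did), 8 at low AHR (2.4%) and 6 on both counts. The 10 AHR partners and chaperones had none and a median of 0.07.

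**Figure D3:**
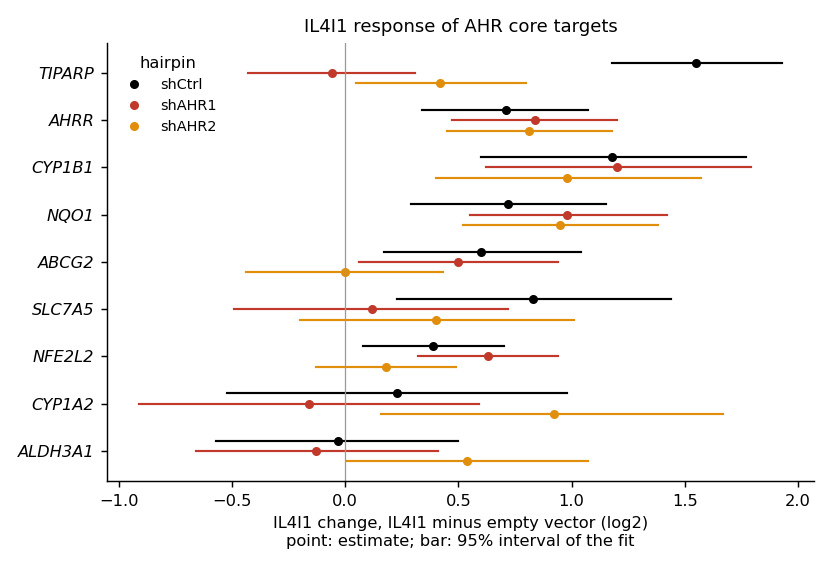
For each measured AHR core target, the log2 change with IL4I1 in shCtrl, shAHR1 and shAHR2 cells, with 95% intervals. The shCtrl estimate of TIPARP lies above its estimates with both AHR hairpins, while the estimates of AHRR and of CYP1B1 lie side by side.

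SLC16A6, a monocarboxylate transporter gene named after its values were seen, also started lower at low AHR. Its arrays read 9.22, 8.00 and 7.72 in shCtrl cells with the vector and 5.78 to 6.69 in the 6 low-AHR vector arrays, and knockdown lowered it by 2.08 ± 0.30. With IL4I1 it rose by 2.35 ± 0.35 in shCtrl cells and by 1.68 ± 0.25 at low AHR, with an interaction of -0.67 ± 0.43 (95% interval -1.59 to 0.24). By hairpin it rose by 2.05 in shAHR2 cells (adjusted p = 0.014), and its change of 1.30 in shAHR1 cells did not pass (adjusted p = 0.079).

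Responses were counted as kept where IL4I1 changed the gene in the same direction in shCtrl, shAHR1 and shAHR2 cells, each past the threshold, with no called interaction. There were 48: 28 rises (0.18% of genes) and 20 falls (0.129%), and 1 of the rises was the IL4I1 transgene. The count rests on single arrays, lying between 13 and 146 when 1 array was left out, with 13 without shAHR2 replicate 3 and 146 without shAHR2 replicate 1. It was 18 to 26 without shAHR1 replicate 1 or 3, shAHR2 replicate 2, IL4I1 shAHR1 replicate 2 or 3, or any IL4I1 shAHR2 array. With the replicate number added to the fit as a block it was 128, the 48 included. A call that is missing in the interaction does not show equality: the 95% interval lay within 1 log2 unit of 0 for 28 of the 48, 14 rises and 14 falls, against 70.4% of all genes. The estimates ran from -1.0 (IL1A) to 0.83 (INSYN2B), and 8 had an unadjusted p under 0.05: IL1A, MPV17L, SDF2L1, PDIA4, MANF, DCLK1, NMB and INSYN2B.

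SLAMF9, a cell-surface receptor of the SLAM immunoglobulin family, was, the IL4I1 transgene aside, the kept rise whose change in its weakest background was largest. It read 6.58, 6.60 and 5.50 against 9.35, 9.58 and 10.21 with IL4I1 in shCtrl cells, 6.60, 6.06 and 6.33 against 9.48, 10.10 and 10.27 in shAHR1 cells, and 5.87, 6.0 and 6.25 against 9.63, 9.79 and 10.21 in shAHR2 cells. Every IL4I1 array was above 9 and every vector array below 7. In all 48 kept genes the groups with and without IL4I1 did not overlap in any background, beside 4.05% of all genes. The SLAMF9 rises were 3.49, 3.62 and 3.83 in the 3 backgrounds, and the interaction was 0.24 ± 0.37. The cytokine gene IL24 rose by 3.03, 2.05 and 2.54 in the same order, the alarmin gene IL1A by 2.97, 1.80 and 2.15, and MPV17L, a peroxisomal and mitochondrial protein whose vector level in shCtrl cells was near the array floor, by 3.14, 2.10 and 2.52. For these 3 the estimates at low AHR were smaller, with interactions of -0.74 ± 0.52, -1.0 ± 0.46 and -0.83 ± 0.30, none past the adjusted threshold. ATP6V0D2, a subunit of the proton pump of lysosomes, and SLC2A10, a glucose transporter gene, had interactions of -0.08 ± 0.52 and -0.10 ± 0.46.

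Of the kept falls, the histone gene H2BC14 changed by -3.15, -3.02 and -3.20, the growth factor gene FGF7 by -1.94, -1.74 and -2.17, and the neuronal adhesion gene NEGR1 by -1.82, -1.96 and -1.85 in shCtrl, shAHR1 and shAHR2 cells. Their interactions were 0.03 ± 0.77, -0.01 ± 0.44 and -0.09 ± 0.37, so the H2BC14 estimate is close to 0 with an error that allows a large difference. To account for the others, the kept rises also held the thioredoxin reductase gene TXNRD1, the ER proteins CALR, PDIA4, MANF, SDF2L1 and ERO1B, the secreted or signalling genes PTX3, IL36B, NMB and ENPP2, the doublecortin-like kinases DCLK1 and DCLK2, AHRR, TBC1D2, HKDC1, KRT86, PLEKHD1, KLHL38, LINC03040, LOC374443 and LINC00856. The kept falls also held the cell division genes PLK4, E2F7, RFC3 and TRIP13, the transcription factor genes SOX9 and NR2F1, the matrix and adhesion genes CCN2 and ITGA2, the GABA receptor subunits GABRA3 and GABRQ, the glutamate transporter gene SLC1A3, and ELMO1, INSYN2B, MEGF10, SLC25A4, UBE2E3 and NSMCE4A. The GCGTG core was in the promoter window of 10 of the 20 kept rises in the table (50%) and of 4 of the 16 kept falls (25%). It was in 47.7% of all measured genes with a promoter.

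**Figure D4:**
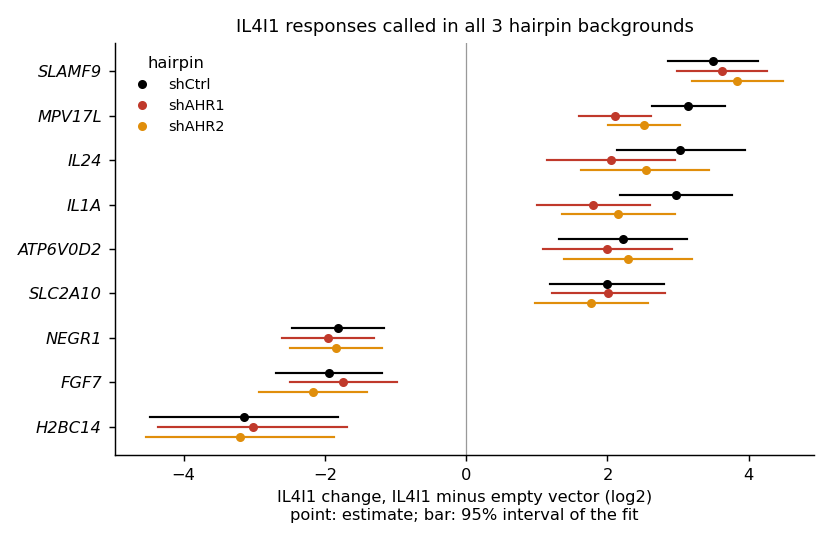
Log2 change with IL4I1, with 95% intervals, in shCtrl, shAHR1 and shAHR2 cells for the 9 named genes whose response was kept. The 3 estimates of SLAMF9 lie at 3.49 to 3.83, while those of IL1A, IL24 and MPV17L are lower with the AHR hairpins than in shCtrl cells.

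Beyond these strict classes, the IL4I1 calls in shCtrl cells and at low AHR come from different arrays and can be set side by side. In shCtrl cells 313 genes rose (2.02%) and 398 fell (2.56%), together 4.58% of genes. At low AHR 373 rose (2.4%) and 564 fell (3.63%), together 6.03%, where 12 arrays in place of 6 gave a median SE of 0.156 in place of 0.220. Of the 313 rises, 163 (52.1%) also rose at low AHR, which is 43.7% of the 373, and 297 had the same sign. Of the 398 falls, 252 (63.3%) also fell at low AHR, which is 44.7% of the 564, and 389 had the same sign. No gene was called in opposite directions. The rises in shCtrl cells had a median of 1.04 there and 0.58 at low AHR, and the falls -1.05 and -0.69, but genes picked for passing in shCtrl cells are large there by that choice. Genes picked at low AHR had medians of 0.68 there and 0.67 in shCtrl cells for rises, and -0.82 and -0.86 for falls. These are in turn large at low AHR by that choice, so neither pair of medians shows whether the responses were equal in size. The shCtrl count fell to 253 genes without vector replicate 2, 324 without vector replicate 3, 250 without IL4I1 replicate 1 and 363 without IL4I1 replicate 2, and the low-AHR count to 609 without shAHR2 vector replicate 2.

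Of 28 gene lists, 26 had no member with a called interaction, and the other two held TIPARP and CCL2. In 4 lists the median interaction lay beyond 0.3 in size, all below 0, against -0.02 over all genes. These counts and medians are descriptions with no test of a list. The first was the 19 ER chaperones and unfolded protein response genes, which fold secreted proteins: 12 rose with IL4I1 in shCtrl cells (2.02% of all genes did), 11 at low AHR (2.4%), and all 11 were on both counts. The median change was 1.14 in shCtrl cells and 0.61 at low AHR, and the interaction was below 0 in 18 of 19, with a median of -0.49 and 9 members at an unadjusted p under 0.05, where 53.1% of all genes were below 0 and 5.38% were at such a p. SDF2L1, a chaperone cofactor, read 5.54, 5.80 and 5.48 against 7.73, 7.56 and 7.56 with IL4I1 in shCtrl cells, and 5.08 to 5.89 against 6.34 to 6.95 in the low-AHR arrays. No low-AHR IL4I1 array reached the shCtrl IL4I1 arrays, yet all exceeded their vector arrays. The share of all genes with the first of these patterns was not computed. SDF2L1 is 1 of the 48 kept genes, which were all separated from their vector arrays in every background, as were 4.05% of all genes. Its interaction was -0.78 ± 0.23 (adjusted p = 0.56), that of the disulphide isomerase gene PDIA4 -0.61 ± 0.19 (adjusted p = 0.64), that of MANF -0.60 ± 0.20 (adjusted p = 0.75) and that of HSPA5, the chief chaperone of the ER, -0.36 ± 0.28 (HSPA5 was named after its values were seen).

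The 30 cytokine and NF-kB genes had a median interaction of -0.59, with 26 below 0 (53.1% of all genes were). At an unadjusted p under 0.05 were 8, CCL2 included (5.38% of all genes were). With IL4I1, 10 rose in shCtrl cells (2.02% of all genes did). At low AHR 5 rose (2.4% of all genes did), all among those 10, and CCL2 fell. CCL20, a chemokine for dendritic cells and T cells, read 6.24, 5.0 and 4.88 against 8.49, 7.84 and 7.58 with IL4I1 in shCtrl cells, and 5.4 to 7.03 against 5.92 to 7.20 at low AHR, where the groups overlap. It rose by 2.60 in shCtrl cells (adjusted p = 0.0011), against 0.59 at low AHR (adjusted p = 0.24), and its interaction was -2.01 ± 0.45 (adjusted p = 0.32). The neutrophil chemokine genes, named after their values were seen, gave interactions of -1.16 ± 0.39 for CXCL5, -1.44 ± 0.39 for CXCL6 and -1.17 ± 0.45 for CXCL8, with rises of 1.71, 1.47 and 1.57 in shCtrl cells. The adhesion gene VCAM1 had -0.92 ± 0.25 (adjusted p = 0.51). None of these but CCL2 passed, so their smaller low-AHR values were not separated from the shCtrl values at this replication.

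The 19 keratin and epidermal differentiation genes had a median of -0.55 and spread from -2.22 to 1.76. With IL4I1, 6 rose in shCtrl cells (2.02% of all genes did) and 2 at low AHR (2.4%), both among the 6. At low AHR TGM2 also fell. KRT33B, a hair keratin gene, read 5.96, 5.71 and 5.36 against 9.35, 7.83 and 7.83 with IL4I1 in shCtrl cells, and 5.22 to 6.20 against 5.68 to 6.69 at low AHR. PI3, which encodes the elastase inhibitor elafin, read 7.49, 6.34 and 6.96 against 10.38, 9.35 and 8.27, and 6.80 to 7.73 against 6.73 to 8.04 at low AHR. For both genes the 3 IL4I1 shCtrl arrays lay above all 15 others, and IL4I1 shCtrl replicate 1 was the highest. The share of all genes with that pattern was not computed. The interactions were -2.07 ± 0.42 for KRT33B (adjusted p = 0.23) and -2.22 ± 0.50 for PI3 (adjusted p = 0.32). The transglutaminase gene TGM2 was like CCL2 in its IL4I1 changes alone: 0.01 in shCtrl cells and a fall of 0.98 at low AHR (adjusted p = 4.0e-04). Its interaction was -0.99 ± 0.22 (adjusted p = 0.32). Knockdown without IL4I1, which raised CCL2, changed TGM2 by -0.48 ± 0.16 (adjusted p = 0.19). KRT19 went the other way, at 1.76 ± 0.50 (adjusted p = 0.54).

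The lists of NRF2 and ATF4 targets had members that rose with IL4I1 in both settings. Of 21 NRF2 and oxidative stress genes, 3 rose in shCtrl cells (2.02% of all genes did) and 11 at low AHR (2.4%), the 3 among the 11. Their medians were 0.35 and 0.53, with a median interaction of 0.15. HMOX1, the haem oxygenase gene, rose by 1.70 and 1.43 (interaction -0.27 ± 0.38, named after its values were seen), and TXNRD1 by 0.90 and 1.08 (interaction 0.18 ± 0.25). Of 33 ATF4 and amino acid response genes, 5 rose in shCtrl cells and 9 at low AHR, 4 on both counts, beside the same shares of all genes. The median interaction was -0.18, with 27 of 33 below 0 (53.1% of all genes were). Neither list had a member at an unadjusted interaction p under 0.05, beside 5.38% of all genes.

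Cell division genes fell with IL4I1 in shCtrl cells and over both AHR hairpins together. Of 44 mitosis and cytokinesis genes, 30 fell in shCtrl cells (2.56% of all genes did) and 41 at low AHR (3.63%), all 30 among the 41, with medians of -2.16 and -2.07 and a median interaction of 0.14. Of 39 DNA replication genes, 24 fell in shCtrl cells and 31 at low AHR, the 24 among the 31, with medians of -1.19 and -1.07 and a median interaction of 0.10. By single hairpin, 11 mitosis and 17 replication genes fell in shAHR1 cells (0.753% of all genes did). In shAHR2 cells 0 and 1 fell (0.277% of all genes did), where the list medians were -1.90 and -0.92. The condensin gene NCAPG changed by -3.0 and -2.13 (interaction 0.87 ± 0.62) and the helicase gene MCM5 by -2.24 and -1.58 (interaction 0.65 ± 0.51). These genes varied among replicates of 1 group: the median of the mitosis list, centred on each gene's mean over all arrays, ran from 0.31 to 1.77 in shCtrl vector arrays and from -1.77 to -0.40 with IL4I1. It ran from 0.19 to 1.86 and from -1.87 to -1.04 in shAHR1 cells, and from 0.18 to 2.01 and from -1.04 to -0.06 in shAHR2 cells. In every group replicate 3 lay above replicate 1, so part of this spread followed the replicate number. In the fit used here, which took no account of that number, the median SE of an interaction was 0.71 in that list. None of its 44 intervals lay within 1 of 0, beside 70.4% of all genes, and a moderate interaction was not detectable in that fit. In bulk RNA, fewer dividing cells and less of these transcripts per cell cannot be told apart.

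**Figure D5:**
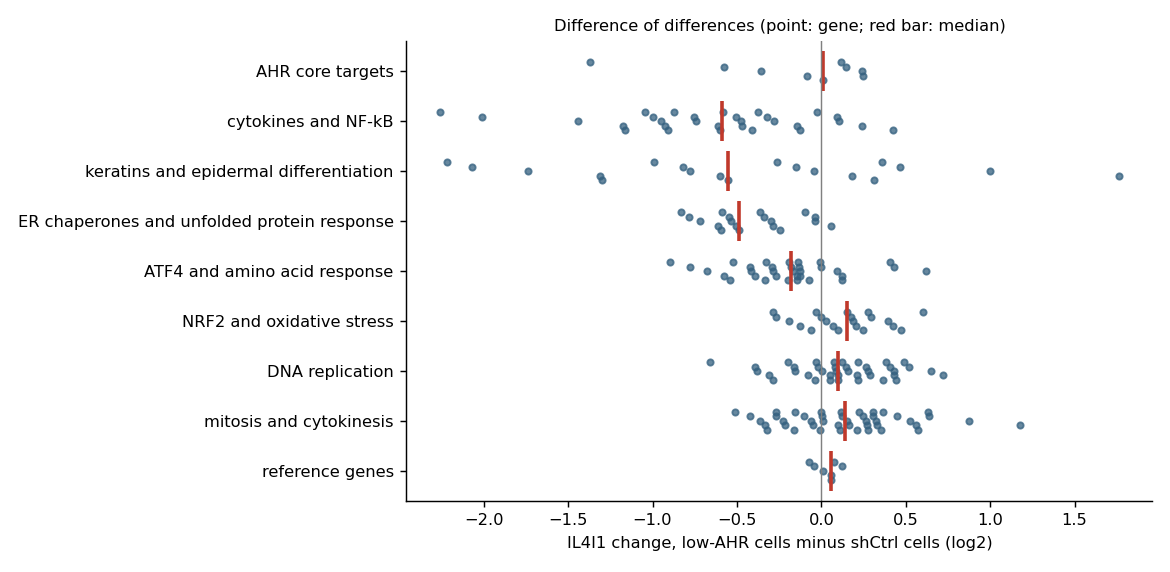
Interaction on the log2 scale for the measured members of selected gene lists, 1 point per gene. The lists are AHR core targets, cytokines, keratins, ER chaperones, ATF4 and NRF2 genes, DNA replication, mitosis and reference genes. ER chaperone, cytokine and keratin genes lie mostly below 0, with medians of -0.49, -0.59 and -0.55, and mitosis and DNA replication genes lie around medians of 0.14 and 0.10.

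The remaining lists had medians from -0.32 to 0.12. The -0.32 was that of 10 leukocyte markers, of which 3 rose with IL4I1 in shCtrl cells (2.02% of all genes did). At low AHR 1 rose (2.4% of all genes did) and 1 fell (3.63%). Their summed linear level was 1126 to 1287 in IL4I1 shCtrl arrays and 705.8 to 1067 in the other 5 groups, with PTPRC near the array median, and its part in the cytokine values was not tested. The 10 epithelial and embryonic kidney markers had a median of -0.11, with 566.8 to 1052 over all groups. The 21 neural and glial markers had a median of 0.12 with 5 falls in shCtrl cells (2.56% of all genes fell) and 4 at low AHR (3.63%), all 4 among the 5. GFAP, the astrocyte filament gene, fell by 0.74 in shCtrl cells (adjusted p = 0.042) against a change of 0.09 at low AHR (interaction 0.84 ± 0.24, adjusted p = 0.54). The 22 antigen presentation genes had a median of -0.21 with 21 of 22 below 0, and the 15 cytosolic tRNA synthetases -0.19 with 14 of 15 below 0, where 53.1% of all genes were below 0. The 23 AP-1 and immediate early genes had a median of -0.15, and FOSB had -0.79 ± 0.25 (adjusted p = 0.66). The 21 amino acid transporters had -0.17, the 15 ribosomal proteins -0.08, the 18 YAP and TGF-beta targets -0.05, the 40 extracellular matrix genes -0.03, and the 21 tryptophan metabolism genes and the 28 growth factors -0.02 each. Above 0 were the 24 p53 targets (0.07), the 7 reference genes (0.06), the 17 lysosomal genes (0.05), the 16 cholesterol synthesis genes (0.03), and the 30 interferon-induced and 31 hypoxia and glycolysis genes (0.02 each).

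Fewer genes passed with shAHR2 than with shAHR1. IL4I1 changed 204 genes in shAHR1 cells (1.31%) and 95 in shAHR2 cells (0.612%), and the difference between these responses passed for 0 genes, with 547 at an unadjusted p under 0.05 (limma). By hairpin, the interaction passed for 0 genes with shAHR1 (901 unadjusted, lowest adjusted p 0.077) and for 2 with shAHR2, BPIFC and CCL2 (0.0129%, 670 unadjusted). These interactions share the shCtrl arrays and have a median SE of 0.311, against 0.27 for their mean.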

How the data were processed

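Biotin-labelled cDNA from total RNA of 18 U-87MG cultures was hybridised to whole-transcript arrays. The authors deposited log2 values, 1 per probe set and array, and the submitters' processing notes name oligo and RMA as tools, with neither version nor settings. RMA corrects background, equalises array distributions and summarises probes. The platform annotation gave 1 gene symbol to 15598 of the 18913 probe sets and several to 870, and did not list 2445. Of the symbols, 1173 were updated through RefSeq (GRCh38.p14) and 58 were not in it. Where 66 genes had several probe sets the brightest was kept, leaving 15529. Group means of all 6 groups were fitted with limma 3.58.1 (lmFit, eBayes, R 4.3.3), and p-values were adjusted by Benjamini-Hochberg over all genes at 0.05. Errors are SE of that fit, with 3 arrays per group, and the number of arrays limits the precision. Exact permutation of 3 against 3 cannot go below p = 0.1, so no such test was made.

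Genes were named by rule: AHR, IL4I1 and AHR core targets; up to 10 genes per class, the lost and gained by largest interaction and the kept by the largest of their smallest IL4I1 change, where the brightest group mean reached 6.51; and up to 3 members per list by lowest interaction adjusted p. Others are said to have been chosen after their values were seen, apart from members listed to account for a class or count. The groups, genes and 28 lists were chosen with earlier results of these data known. The pipeline was tested on simulated data. Alternatives are given in the closing section.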

Additional observations from a re-analysis of the deposited data

Results flagged for a closer look

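The 3 genes with a called interaction are those whose change with IL4I1 differed between shCtrl and low-AHR cells by the test of the difference itself. The interaction of CCL2 was -2.26, from a change of 0.00 in shCtrl cells to one of -2.26 at low AHR, and 6 of 6 low-AHR IL4I1 arrays lay below every vector array of their own background. The interaction of BPIFC was -2.95, with 3 of 3 IL4I1 shCtrl arrays above the other 15 arrays, and those 15 read near the array floor. The interaction of TIPARP was -1.37, with 3 of 3 IL4I1 shCtrl arrays above the other 15. Groups with and without IL4I1 did not overlap in shCtrl cells for 20.3% of all genes, and in all 3 backgrounds for 4.05%. The shares of all genes with the array patterns of CCL2, BPIFC or TIPARP were not computed.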

How the results depend on the processing

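The 3 called interactions kept their sign in all 25 alternatives. CCL2 passed in 23 of them (adjusted p 0.00277 to 0.0591), BPIFC in 16 (0.00535 to 0.797, the highest with a mean-variance trend and robust variances) and TIPARP in 9 (0.0131 to 0.271). Asking for a change of at least 1 kept the same fit and p-values, and all 3 interactions exceeded 1 in size. That setting could not have failed them. The lowest BPIFC value came without dim genes, a filter that BPIFC met only through its IL4I1 shCtrl mean of 6.62, so that pass is no separate check. With a trend and robust variances 1 interaction was higher (MCTP1), 1 rise was lost, 97 responses were kept (46 of the 48), and 4 genes passed with shAHR1 and 1 with shAHR2. Without dim genes 1 was higher, 102 were kept (42 of the 48), 3 passed with shAHR1 and 1 between hairpins. Array weights gave 1 lost rise, 127 kept and 1 gene between hairpins, and turned NFE2L2 to -0.01. Asking for a change of at least 1 left 31 kept, and fitting the shAHR2 interaction on its 12 arrays alone gave 0 genes. With the replicate number as a block, 4 interactions passed (SYCP1 added) and 128 responses were kept. The fit used here did not take the numbers to pair the arrays, and the kept count depended on that choice. Of 45 same-number pairs, 12 correlated above 0.1 (-0.132 to 0.324), and 14 of 18 arrays correlated best with their own number. That is a hint of shared conditions from the data and not from the labels. Median centring shifted the median interaction by 0.014. Leaving out 1 array gave 0 to 3 lower and 0 to 2 higher interactions, 0 to 2 lost rises, 0 lost falls, 0 to 1 gained, 13 to 146 kept, 0 to 3 genes with shAHR1, 0 to 3 with shAHR2 and 0 to 1 between hairpins. Signs turned within the ranges of AHRR (-0.03 to 0.23), ALDH3A1 (-0.12 to 0.42), CYP1A2 (-0.13 to 0.35), CYP1B1 (-0.28 to 0.08) and NFE2L2 (-0.06 to 0.11). Those of NQO1 (0.09 to 0.47, lowest without IL4I1 shCtrl replicate 1 and highest without replicate 3) and ABCG2 (-0.47 to -0.21, weakest without shCtrl vector replicate 1) kept their sign. The cause was not tested.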

Other observations

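Genes outside the comparisons led by AHR also moved at low AHR without passing the test of the interaction. GPNMB, a glycoprotein of lysosomes and melanosomes, rose with IL4I1 by 1.12 at low AHR (adjusted p = 0.0061), against -0.17 in shCtrl cells (interaction 1.28 ± 0.38, adjusted p = 0.60). By hairpin its change was 1.69 in shAHR1 cells (adjusted p = 0.017) and 0.55 in shAHR2 cells (adjusted p = 0.54), a difference of 1.14 that did not pass (adjusted p = 1.0). CTSK, the gene of the lysosomal protease cathepsin K, rose by 0.79 (adjusted p = 0.0096), against 0.14 in shCtrl cells (interaction 0.65 ± 0.29, adjusted p = 0.90, and 0.38 without IL4I1 shCtrl replicate 1). THBS1, a matrix glycoprotein gene, fell by 1.04 at low AHR (adjusted p = 0.013), against -0.04 in shCtrl cells (interaction -1.0 ± 0.41, adjusted p = 0.87). EREG, a ligand of the EGF receptor, rose by 1.01 and 0.90 (interaction -0.11 ± 0.23). EREG and MMP1, a collagenase gene that rose by 2.08 and 1.36 (interaction -0.72 ± 0.42), were named after their values were seen. Over all 18913 probe sets, 2 passed the interaction, neither of them among the 3315 probe sets with no single gene symbol.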
